A study of Mus musculus with 48 samples.

Results

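Cycling GL261 tumor cells are here the cells of a mouse glioma that carried transcripts of Mki67, Top2a or both, genes of cycling cells. They were chosen from the cells of 4 single-cell libraries by their own transcripts, counted as unique molecular identifiers (UMIs). A member had at least 500 detected genes, no UMI of Ptprc (the CD45 gene of leukocytes) or Cldn5 (a tight-junction gene of brain endothelium), UMIs of at least 2 of 10 tumor genes, and at least 2 UMIs of Mki67 and Top2a together. The tumor genes were Sox2, Ptprz1, Bcan, Fabp7, Nes, H19, Prph, Col9a2, Matn2 and Moxd1. The rule found 215 cells among the 9172 of the 4 libraries, of which 8726 had 500 or more genes, and among 14896 cells in both count tables of the series.

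The study placed GL261 glioma cells carrying a control hairpin (shNC) or a hairpin against P-selectin (shSELP) in the brains of C57BL/6 mice and measured single-cell transcriptomes with droplet libraries. Each group of the mix had 2 libraries, taken on day 16 per the labels. In them CD11b-positive cells, CD45-positive cells and the remaining suspension of pooled brains were combined in equal amounts. That suspension held the cancer cells together with other cells of the brain. The equal mixing sets how much of that suspension a library holds and not how many tumor cells, so the number of members does not measure tumor size. A hairpin acts only in the injected cells and not in the host's platelets and endothelium, which also make P-selectin. Nothing in the labels says that the 2 libraries of a group come from separate animals or pools, so every p-value here measures only the spread between these libraries.

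A dividing cell passes from G1, where cyclin D kinases release E2F transcription factors, into S phase, where licensed origins fire and DNA is copied, and through G2 into mitosis, which cyclin B with Cdk1 starts and the anaphase-promoting complex ends. Transcripts of replication genes peak around the start of S phase and those of mitotic genes in G2 and mitosis, so a cell's transcripts place it roughly in the cycle.

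In the order shNC 1, shNC 2, shSELP 1 and shSELP 2, which holds for every run of 4 values in the text, the libraries held 95, 59, 18 and 43 members. Their summed UMIs were 1455164, 900978, 319865 and 385915, against 22945972, 22626413, 17398121 and 25589350 UMIs over all cells of the same libraries. Levels are given as CPM, the UMIs of a gene per 1000000 UMIs of the summed cells, and 3 UMIs, the limit that a count of 0 allows, corresponded to 2.06, 3.33, 9.38 and 7.77 CPM. The shSELP groups therefore rested on far fewer cells, 18 in shSELP 1, than the shNC groups.

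The library shSELP 2 stood apart. Its members had a median of 5700 UMIs and 2137 genes, against 16921, 16110 and 18084 UMIs and 4196, 4073 and 4321 genes in the other libraries. Median mitochondrial shares were 2.80, 2.13, 1.51 and 0.398% of UMIs, and the nuclear RNA Malat1 stood at a median of 42.5, 38.7, 24.4 and 4.38 UMIs per 10000. Members under 1% mitochondrial UMIs and under 5 Malat1 UMIs per 10000 numbered 6 of 95, 5 of 59, 3 of 18 and 22 of 43. Such low cells were 1, 0, 0 and 0 of the cycling Ptprc-positive cells of the same libraries and 22, 28, 22 and 42 of the other tumor cells. The median depth of cycling Ptprc-positive cells in shSELP 2 was 18472 UMIs, the highest of the 4 libraries, so these cells did not share the low depth. They too were chosen by a number of UMIs, which is easier to reach in a deep cell. The depth of other cells outside the tumor was not compared. Without the low cells, 89, 54, 15 and 21 members remained, with medians of 17278, 16489, 18644 and 12960 UMIs. Fold changes and list medians between the groups of members, and counts of calls, are given below with and without shSELP 2, a list's calls only where they differ. Leave-one-out medians of a list are given in the order of the library left out, and a gene's fold change also without any other library whose absence turned its sign, changed its call or moved it over 1.5 times. The part of these low cells in any difference between the groups was tested only by leaving them out.

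**Figure D1:**
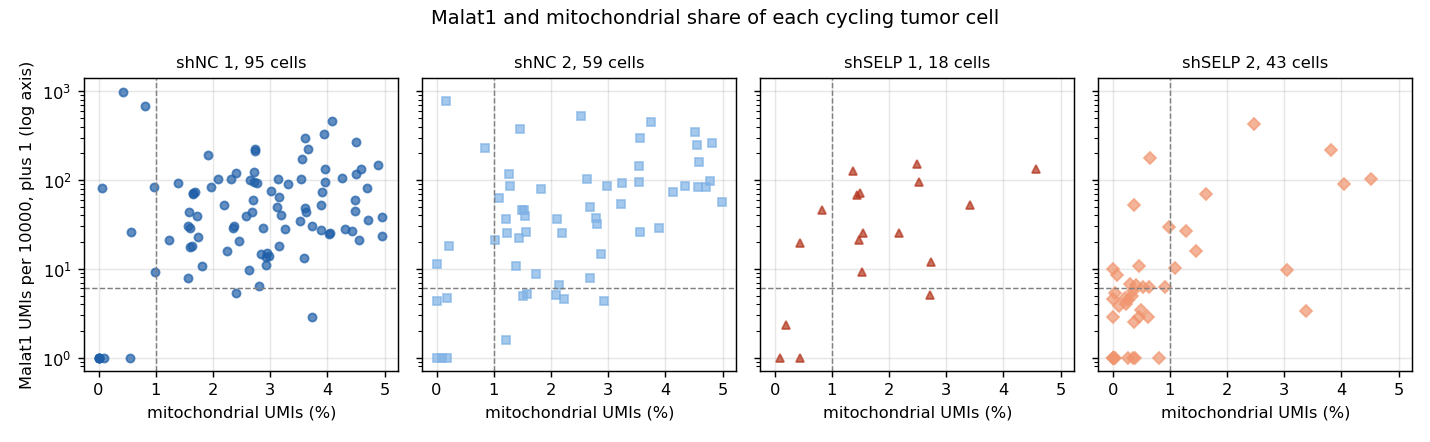
Mitochondrial percent of UMIs (horizontal axis) against Malat1 UMIs per 10000 plus 1 (vertical log axis), 1 point per cycling tumor cell and 1 panel per library, with dashed lines at 1% and 5 per 10000. The corner under both lines holds 22 of 43 members in shSELP 2 and 6, 5 and 3 in the other libraries.

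The values that chose the members are a description and not a result. Members held a median of 5, 4, 4.5 and 3 UMIs summed over Mki67, a nuclear protein of cycling cells, and Top2a, the topoisomerase that untangles replicated chromosomes. Not every member held both, for Mki67 was found in 70, 41, 10 and 18 members and Top2a in 89, 50, 18 and 42. Just inside the threshold, 21, 19, 6 and 13 members had exactly 2 of these UMIs, and just outside it 47, 50, 16 and 26 tumor cells had 1. For the tumor genes, 3, 5, 0 and 10 members had exactly 2 of the 10, while 4, 8, 4 and 13 cells that met all the other conditions had 1. Cells that met every condition except the absence of Ptprc held 1 Ptprc UMI in 7, 4, 1 and 0 cases and more in 29, 30, 3 and 31, and 1, 0, 1 and 2 were left out for Cldn5. Members of shSELP 2 stood closest to the thresholds, with a median of 3 tumor genes against 7, 7 and 6 in the other libraries.

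H19 and Prph were among the genes that chose the members, so their levels are a description and check nothing. H19, a long RNA of the fetal imprinted locus, gave 1254, 658, 438 and 306 CPM, and Prph, a neuronal intermediate filament, gave 735, 444, 778 and 894 CPM in the members. In cycling Ptprc-positive cells of the same libraries the levels were 25.01, 13.7, 1.91 and 2.45 CPM for H19 and 13.3, 17.4, 4.14 and 6.49 CPM for Prph. UMIs of H19 were found in 82, 38, 8 and 9 members, and in 16.7, 11.4, 2.24 and 4.37% of cycling Ptprc-positive cells, whose median depths were 15464, 16110, 13270 and 18472 UMIs. H19 was thus far more even in shNC 1 than in shSELP 2, where 1 cell held 92 of its 118 UMIs, while Prph was found in 89, 52, 17 and 41 members. The label was checked on genes that the rule did not read, of which Cdc20 and Cdk1, of mitosis, had UMIs in 71, 46, 15 and 33 and in 82, 44, 16 and 35 members. Tubb3, a neuronal tubulin, stood at 399, 587, 650.3 and 1021 CPM in members and 12.8, 20.3, 5.73 and 8.36 CPM in cycling Ptprc-positive cells.

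Markers of other cell types were low in the members with named exceptions. The 10 macrophage and microglia genes summed to 1073, 1884, 1641 and 2291 CPM, of which Cd74, the MHC class II chaperone, made up 885, 1724, 1510.0 and 2011, against 36237, 34387, 39739 and 45552 in cycling Ptprc-positive cells. The 8 T and NK cell genes summed to 59.8, 69.9, 9.38 and 33.7 CPM, the 5 B and plasma cell genes to 11.7, 2.22, 0 and 0, and the 4 neutrophil genes to 0, 0, 3.13 and 7.77, with Csf3r at 0 in the members of every library. The 6 endothelial genes summed to 564, 912, 609.6 and 498 CPM, nearly all from Ly6c1 at 514, 855, 578 and 459 CPM, while Kdr, an endothelial growth factor receptor, was at 0. Oligodendrocyte genes summed to 194, 239, 291 and 254 CPM, mural genes to 12.4, 105, 59.4 and 0, fibroblast genes to 114, 16.6, 21.9 and 0 and astrocyte genes to 117, 101, 81.3 and 88.1, with Aqp4 at 0. The 4 neuronal genes summed to 13.7, 2.22, 0 and 2.59 CPM, the 4 hemoglobin genes were at 0 in all 4 libraries, and 0, 1, 0 and 0 members drew over 1% of their UMIs from any 1 of these lists. In the 2 libraries of sorted CD11b-positive cells, of 2862 cells each, the tumor conditions were met by 5 and 6 cells and the full rule by 0 and 1.

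Selp, the P-selectin gene that the hairpin targets, had no UMI in the members of any library. At 3 UMIs, this allows up to 2.06, 3.33, 9.38 and 7.77 CPM, so a loss of Selp in the shSELP members was not detectable at this depth. Other tumor cells held 0.306, 0.370, 0 and 1.14 CPM and cycling Ptprc-positive cells 0, 0.390, 0.319 and 0.433 CPM, also at or near the limit. Selplg, which encodes the P-selectin ligand of leukocytes, stood at 3.44, 6.66, 15.6 and 0 CPM in members against 211, 222, 222 and 213 CPM in cycling Ptprc-positive cells. Neither end of the P-selectin pair was thus measurable as a group difference in the cycling tumor cells.

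The first question was whether the hairpin group changed how many tumor cells were cycling. Members made up 28.6, 22.4, 14.6 and 27.0% of the tumor cells that the rule found (332, 263, 123 and 159 cells), with exact (Clopper-Pearson) 95% intervals of 23.8 to 33.8, 17.5 to 28.0, 8.91 to 22.1 and 20.3 to 34.7%. The library shSELP 1 was lowest, shSELP 2 lay between the shNC libraries, and the groups overlapped. The mean difference of shSELP minus shNC was -4.68 points (exact two-sided permutation p = 0.667, with 0.33 the smallest that 4 libraries allow). It was -10.9 points without shSELP 2 and 1.52 points, the other sign, without shSELP 1, while leaving out shNC 1 or shNC 2 gave -1.59 and -7.78 points. Since 2 UMIs are easier to reach in a deep cell, tumor cells found at full depth were also thinned to 1000 UMIs each. The Mki67 and Top2a threshold alone was then applied again, which gave 4.01, 3.94, 3.36 and 5.56%, from few cells, and a difference of 0.484 points. With low cells left out the difference was -7.67 points and with 3 tumor genes required -0.558 points. The tumor cells that are not members included 11, 22, 19 and 23 cells, of 237, 204, 105 and 116, with over 1% of UMIs from a marker list of another cell type. With such cells left out, an alternative chosen after seeing the data, the shares were 29.6, 24.2, 17.3 and 31.6%, and the groups still overlapped. No difference in the share was shown in either direction.

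The machinery of the cycle was read next, as 8 lists of 135 genes in the order of the cycle, without Mki67 and Top2a, and all 135 genes had UMIs in the members. Between shSELP and shNC members, 0 of 128 cell cycle genes tested passed an adjusted p of 0.05 (edgeR quasi-likelihood, Benjamini-Hochberg), where 1.07% of the 7070 genes tested did. At an unadjusted p of 0.05, 11 were higher and 4 lower in shSELP, against 1504 in either direction of the 7070, and DESeq2 called 0 of the 78 to which it gave an adjusted p, against 104 of 3232 such genes in all. The median log2 fold change of the 128 genes was 0.08 (leave-one-out 0.06, 0.04, 0.08 and -0.01) against -0.01 over all genes tested. The same backgrounds stand beside the counts of each of the 8 lists below. That both shSELP libraries lay above or below both shNC libraries is, wherever it is said, a description. For 2 libraries against 2 such a separation has an exact two-sided permutation p of 0.33. The share of all genes that separate so is not given. With shSELP 2 left out 0 of 133 genes were called (5 higher and 7 lower at the unadjusted p), and with shSELP 1 left out 0 of 132. Leaving out shNC 1 gave 1 call of 115 and leaving out shNC 2 gave 3 of 116. The summed level of all 135 genes was 15811, 15761, 16019 and 17644 CPM, a narrow range in which shSELP 2 was highest.

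G1 regulators open the cycle. The 16 genes of that list summed to 1409, 1553, 1941 and 1638 CPM in the members, and both shSELP libraries were above both shNC libraries. Ccnd1, the cyclin D that answers growth signals, stood at 483, 575, 844 and 503 CPM, and only shSELP 1 was above both shNC libraries. Its kinase partner Cdk4 stood at 315, 341, 472 and 479 CPM, and both shSELP libraries were higher, with a log2 fold change of 0.54 ± 0.17 that missed the threshold (adjusted p = 0.123, 0.54 without shSELP 2). Ccnd3 stood at 281, 279.7, 222 and 264 CPM and Ccnd2 at 68.0, 109, 116 and 122 CPM, and for neither did the groups pass the test. No member of the list was called (1 higher and 1 lower at the unadjusted p, 0 of 5 by DESeq2, median log2 fold change 0.22, leave-one-out 0.16, 0.10, 0.11 and 0.36).

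Licensing and fork proteins prepare and copy the DNA. The 28 genes summed to 1693, 1846, 2173 and 1920.1 CPM in the members, and both shSELP libraries were above both shNC libraries. Mcm5, a subunit of the replicative helicase, stood at 121, 119.9, 153 and 137 CPM, with the same separation. Its partner Mcm7 stood at 122, 107, 197 and 117 CPM, highest in shSELP 1. Of 27 genes tested 0 were called (3 higher and 0 lower at the unadjusted p, 0 of 20 by DESeq2, median 0.21, leave-one-out 0.07, 0.27, 0.06 and 0.27). With 1 library left out, calls were 1 higher and 0 lower without shNC 2.

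The 7 genes of nucleotide supply summed to 584, 680.4, 822 and 1013 CPM, higher in both shSELP libraries than in both shNC libraries. Rrm2, the regulated subunit of ribonucleotide reductase, stood at 52.9, 78.8, 106 and 124 CPM, and both shSELP libraries were above both shNC libraries. Its log2 fold change was 0.84 ± 0.27 (adjusted p = 0.127, 0.72 without shSELP 2 and 0.54 without shNC 1). Dut, which clears dUTP, stood at 208, 251, 316 and 371 CPM with the same order, and its log2 fold change was 0.59 ± 0.19 (adjusted p = 0.133, 0.48 without shSELP 2). None of the 7 passed the test, though 3 were higher at the unadjusted p (0 of 6 called by DESeq2, median 0.59, leave-one-out 0.47, 0.65, 0.73 and 0.48). Leaving out 1 library changed the calls to 1 higher and 0 lower without shNC 1.

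Mitotic kinases and cyclins drive entry into mitosis. The 16 genes summed to 1761, 1847, 1623 and 2213 CPM, lowest in shSELP 1 and highest in shSELP 2. Cdk1, the kinase that starts mitosis, stood at 313, 287, 394 and 495 CPM, higher in both shSELP libraries, with a log2 fold change of 0.56 ± 0.19 (adjusted p = 0.139, 0.40 without shSELP 2). Its cyclin Ccnb1 stood at 95.5, 71.0, 90.7 and 174 CPM, where shSELP 2 was high and shSELP 1 lay between the shNC libraries. Plk1, a kinase of spindle assembly, stood at 60.5, 57.7, 37.5 and 93.3 CPM, lowest in shSELP 1 and highest in shSELP 2. Of 15 genes tested 0 were called (1 higher and 1 lower at the unadjusted p, 0 of 10 by DESeq2, median 0.17, leave-one-out 0.20, 0.12, 0.40 and -0.01). Leave-one-out calls were 0 higher and 1 lower without shNC 2.

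The 29 spindle and kinetochore genes summed to 2707, 2468, 2269.7 and 2845 CPM, again lowest in shSELP 1 and highest in shSELP 2. Birc5, the survivin subunit of the chromosomal passenger complex, stood at 252, 287, 372 and 339 CPM. Cenpa, the histone variant of centromeres, stood at 346, 336, 166 and 319 CPM, where shSELP 1 was lowest. Prc1, which bundles microtubules of the central spindle, stood at 249, 229, 203 and 220.3 CPM, a narrow range. The groups did not overlap for any of the 3, with shSELP above shNC for Birc5 and below it for Cenpa and Prc1, and none passed the test. The share of all genes that separate so is not given, so this does not set the 3 apart. The log2 fold changes were 0.40 ± 0.18 for Birc5 (adjusted p = 0.246, 0.47 without shSELP 2), -0.48 ± 0.27 for Cenpa (adjusted p = 0.319, -1.04 without shSELP 2 and -0.07 without shSELP 1) and -0.18 ± 0.19 for Prc1 (adjusted p = 0.617, -0.23 without shSELP 2, -0.31 without shNC 2 and -0.09 without shSELP 1). Of 29 genes tested 0 were called (1 higher and 0 lower at the unadjusted p, 0 of 16 by DESeq2, median -0.05, leave-one-out -0.04, -0.16, 0.14 and -0.25), and the sign of the median turned without shSELP 1.

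The 10 genes of anaphase and cytokinesis summed to 1974, 1898, 1788 and 2498 CPM. Cdc20, the activator of the anaphase-promoting complex, stood at 317, 343, 219 and 321 CPM, lowest in shSELP 1, and its log2 fold change was -0.28 ± 0.21 (adjusted p = 0.472, -0.58 without shSELP 2 and -0.01 without shSELP 1). Ube2c, the ubiquitin-conjugating enzyme of that complex, stood at 422, 332, 388 and 658 CPM, with shSELP 2 highest and shSELP 1 between the shNC libraries. Of 10 genes tested 0 were called (0 higher and 1 lower at the unadjusted p, 0 of 8 by DESeq2, median -0.03, leave-one-out -0.09, -0.09, 0.06 and -0.12). With 1 library left out, calls were 0 higher and 1 lower without shNC 2.

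The 18 genes of chromosome structure summed to 5424, 5207, 5112 and 5284 CPM. H2afz, a histone variant, stood at 1113, 1185, 1498 and 1539 CPM, higher in both shSELP libraries (log2 fold change 0.40 ± 0.16, adjusted p = 0.195, 0.39 without shSELP 2). Hmgb2, a chromatin-bending protein of cycling cells, stood at 1903, 1758, 1460.0 and 1710.2 CPM, lower in both shSELP libraries (log2 fold change -0.21 ± 0.17, adjusted p = 0.495, -0.32 without shSELP 2, -0.33 without shNC 2 and -0.07 without shSELP 1). Neither passed the test, and they lay on opposite sides of 0. The 11 genes of homologous recombination and checkpoints summed to 259, 262, 291 and 233 CPM, with shSELP 1 highest and shSELP 2 lowest. Brca1, of the repair pathway, stood at 24.7, 33.3, 18.8 and 18.1 CPM, lower in both shSELP libraries. Of 18 and of 8 genes tested 0 were called (1 higher and 0 lower, and 1 higher and 1 lower, at the unadjusted p, with 0 of 12 and 0 of 1 by DESeq2). The median log2 fold changes were -0.17 (leave-one-out -0.13, -0.22, -0.20 and -0.24) and -0.26 (leave-one-out -0.28, -0.04, -0.22 and -0.26).

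**Figure D2:**
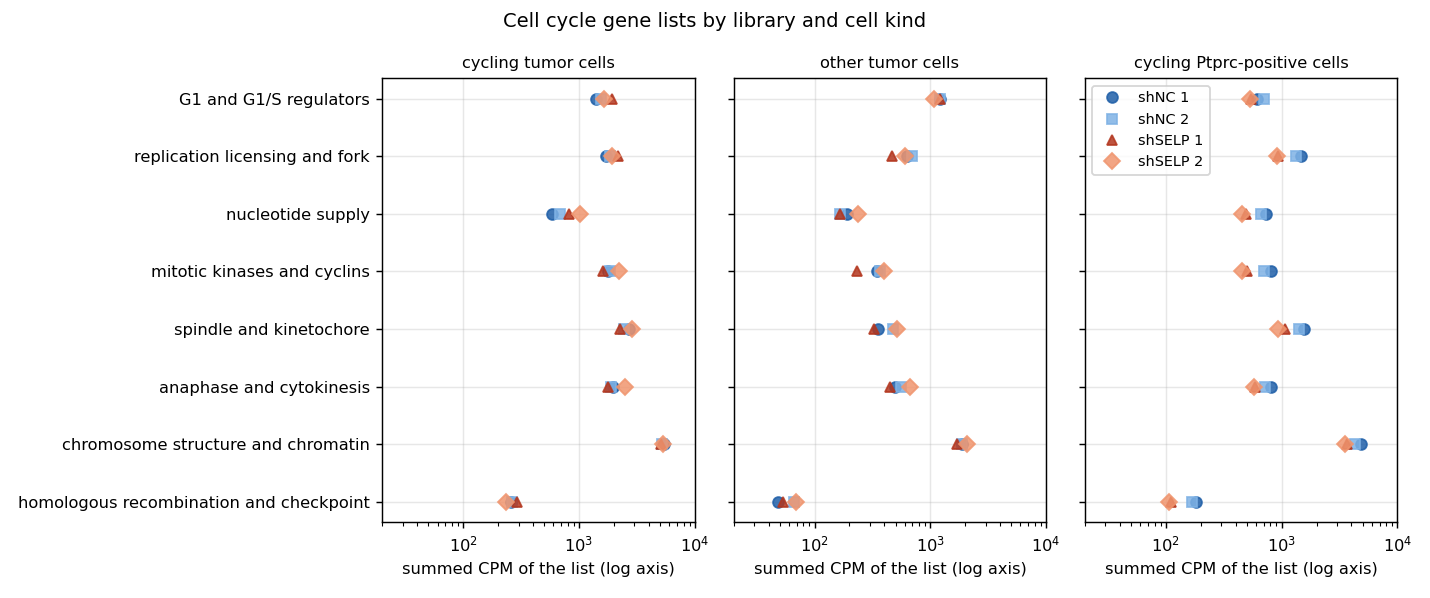
Summed CPM of each of the 8 cell cycle lists (vertical axis) on a log horizontal axis, 1 point per library, for cycling tumor cells, other tumor cells and cycling Ptprc-positive cells. In the cycling tumor cells the points of the 4 libraries run from 584 to 1013 CPM for nucleotide supply, with both shSELP libraries above both shNC libraries, and from 5112 to 5424 CPM for chromosome structure, with the groups overlapping.

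Brakes on the cycle were measured in the same cells. Cdkn1a, the kinase inhibitor that p53 induces, stood at 73.5, 139.8, 197 and 228 CPM, higher in both shSELP libraries, and did not pass the test (log2 fold change 1.03 ± 0.29, adjusted p = 0.0978, 0.92 without shSELP 2, 0.59 without shNC 1 and a called 1.46 without shNC 2). Cdkn2a, whose locus many gliomas lose, stood at 216, 204, 319 and 215 CPM in members and 7.15, 9.56, 6.69 and 7.64 CPM in cycling Ptprc-positive cells, so its transcript was present in the tumor line. Of 7 inhibitors tested 0 were called (1 higher and 1 lower at the unadjusted p, 0 of 4 by DESeq2, median 0.33, leave-one-out 0.36, 0.28, 0.44 and 0.26). Leaving out 1 library changed the calls to 1 higher and 0 lower without shNC 2. Among p53 targets, Phlda3, an inhibitor of Akt, stood at 83.2, 99.9, 153 and 176 CPM, higher in both shSELP libraries (log2 fold change 0.86 ± 0.22, adjusted p = 0.0808, 0.76 without shSELP 2). Mdm2, the ligase that degrades p53, stood at 90.02, 109, 78.2 and 67.4 CPM, lower in both. Of 8 p53 targets tested 0 were called (1 higher and 1 lower at the unadjusted p, 0 of 6 by DESeq2, median -0.19, leave-one-out -0.47, -0.07, -0.06 and -0.11). Beside both lists stand 1504 of 7070 genes at the unadjusted p and 104 of 3232 called by DESeq2.

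The position of the members in the cycle was read from the S and G2/M lists of Seurat, 43 and 52 genes without Mki67 and Top2a. The median member held 25.8, 27.9, 32.4 and 29.6 UMIs of S genes and 83.4, 74.0, 56.2 and 93.2 of G2/M genes per 10000. Members differed widely among themselves within every library, for in shNC 1 10% of members lay below 26.3 G2/M UMIs per 10000 and 10% above 150.5, and in shSELP 2 the same bounds were 49.5 and 131. The log2 ratio of summed G2/M to S UMIs was 1.61, 1.45, 1.01 and 1.62 in members, 0.70, 0.84, 1.11 and 1.03 in other tumor cells and 1.24, 1.22, 1.29 and 1.23 in cycling Ptprc-positive cells. Among the members shSELP 1 was lowest and the other 3 libraries were close, so the groups overlapped. The difference of shSELP minus shNC was -0.21 (exact two-sided permutation p = 1), which became -0.51 without shSELP 2 and 0.10 without shSELP 1. In cells thinned to 1000 UMIs, 75 of 94, 44 of 58, 14 of 18 and 38 of 43 members held more G2/M than S UMIs. In such thinned cells the difference was -0.28, and with 6 leukocyte genes required at 0 it was 0.078, the other sign.

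Cycling tumor cells and cycling Ptprc-positive cells met the same Mki67 and Top2a condition, and their other cell cycle genes were set against each other within each library. The 2 genes had unlike parts in it. Mki67 was found in 73.7, 69.5, 55.6 and 41.9% of members and 91.0, 83.2, 83.9 and 78.1% of cycling Ptprc-positive cells. Top2a was found in 93.7, 84.7, 100 and 97.7% against 69.8, 73.7, 63.7 and 64.5%. The effect of this on the comparison was not tested. Of 134 cell cycle genes tested, 64 passed (edgeR quasi-likelihood with library as a block, Benjamini-Hochberg), 52 higher and 12 lower in the tumor cells. Over all 10042 genes tested, 57.0% passed and 26.4% were higher in tumor cells, against 47.8% and 38.8% of the cell cycle genes. The share called was thus below the background and the share called higher above it. The median log2 difference was 0.40 over the 134 genes and -0.05 over all genes tested. Without shSELP 2 54 of 135 passed, with 41 higher and 13 lower and a median of 0.23, and the other libraries left out in turn gave 54 to 62. In cells thinned to 1000 UMIs 48 genes were tested and 19 passed, 18 of them higher, where 48.8% of 2454 genes passed and 462 were higher. With at least 4 Mki67 and Top2a UMIs 56 of 133 passed, 33 higher and 23 lower, and the median was 0.05. Of these calls 58.9% were higher, against 81.3% at 2 UMIs. Over all 8840 genes tested at 4 UMIs, 51.3% passed and 2124 were higher. The 24.8% of cell cycle genes called higher were then near the background, so the excess seen at 2 UMIs was not kept.

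The 2 kinds of cells met the condition with different levels of the phase lists. The median cycling Ptprc-positive cell held 25.04, 18.8, 14.0 and 12.6 UMIs of G2/M genes per 10000, nearer in every library to the other tumor cells, at 14.5, 14.7, 16.1 and 22.7, than to the members, at 83.4, 74.0, 56.2 and 93.2. For S genes the medians were 12.4, 9.30, 6.40 and 6.73 in cycling Ptprc-positive cells, 8.20, 9.05, 7.98 and 10.6 in other tumor cells and 25.8, 27.9, 32.4 and 29.6 in members. The part of this in the differences between them was tested only by requiring 4 Mki67 and Top2a UMIs, which brought the G2/M medians to 97.1, 93.6, 88.9 and 98.2 in members and 69.9, 71.2, 39.3 and 16.2 in cycling Ptprc-positive cells. The members were still higher in every library. The log2 differences come from sums scaled by TMM, while the CPM printed are not scaled so, and a gene of equal CPM in both kinds of cells has a log2 difference of -0.50. Between the groups of members the same shift is -0.0037.

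By list, mitotic kinases had 10 higher and 0 lower of 16 tested, spindle genes 15 higher and 1 lower of 29 tested and anaphase genes 9 higher and 0 lower of 10 tested. Median log2 differences were 1.05, 0.59 and 1.11. Licensing genes had 8 higher and 2 lower of 28 tested (median 0.26) and nucleotide supply 0 higher and 1 lower of 7 tested (median -0.21). G1 regulators had 3 higher and 4 lower of 15 tested (median 0.09), chromosome structure 6 higher and 4 lower of 18 tested (median 0.16) and homologous recombination 1 higher and 0 lower of 11 tested (median 0.51). Without shSELP 2 mitotic kinases had 9 higher and 0 lower, spindle genes 10 higher and 1 lower, anaphase genes 9 higher and 0 lower, licensing genes 5 higher and 2 lower, nucleotide supply 0 higher and 2 lower, G1 regulators 3 higher and 4 lower, chromosome structure 4 higher and 4 lower and homologous recombination 1 higher and 0 lower. Other libraries moved some counts too, for licensing genes had 5 higher and 2 lower without shSELP 1, 8 higher and 1 lower without shNC 1 and 7 higher and 0 lower without shNC 2, and chromosome structure 3 higher and 5 lower without shSELP 1, 4 higher and 3 lower without shNC 1 and 4 higher and 2 lower without shNC 2. Nucleotide supply had 1 higher and 1 lower without either shNC library in turn, and homologous recombination 2 higher and 0 lower.

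The medians of these lists also moved with 1 library left out, from 0.76 (without shSELP 2) to 1.26 (without shNC 1) for mitotic kinases, from 0.35 (without shSELP 2) to 0.73 (without shNC 1) for spindle genes and from 0.96 (without shSELP 2) to 1.22 (without shNC 2) for anaphase genes. For licensing genes they ran from 0.07 (without shSELP 2) to 0.45 (without shNC 1), for chromosome structure from 0.10 (without shSELP 2) to 0.16 (without shNC 1) and for homologous recombination from 0.26 (without shSELP 1) to 0.71 (without shNC 1). Nucleotide supply, from -0.51 (without shSELP 2) to 0.15 (without shNC 1), and G1 regulators, from -0.24 (without shSELP 1) to 0.37 (without shNC 2), changed sign, so neither has a direction here. With at least 4 Mki67 and Top2a UMIs mitotic kinases had 9 higher and 0 lower (median 0.85), spindle genes 8 higher and 3 lower (median 0.14) and anaphase genes 8 higher and 0 lower (median 1.07). Licensing genes then had 4 higher and 6 lower (median -0.19), nucleotide supply 0 higher and 4 lower (median -0.60), G1 regulators 3 higher and 4 lower (median -0.02), chromosome structure 1 higher and 6 lower (median -0.14) and homologous recombination 0 higher and 0 lower (median 0.06). The medians of licensing, G1 and chromosome structure thus changed sign at this threshold, while those of mitotic kinases and anaphase genes stayed near 1. These are counts beside the background of 57.0% called and 26.4% higher over all genes, and no test compared 1 list with another. At 4 Mki67 and Top2a UMIs the background was 51.3% called, with 2124 of 8840 genes higher. Without shSELP 2 it was 54.0% called, with 2503 of 10252 higher. Genes higher were 2604 of 10763 without shSELP 1, 2263 of 9919 without shNC 1 and 2230 of 10094 without shNC 2.

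Cdc20 stood at 317, 343, 219 and 321 CPM in members and 39.3, 36.7, 22.0 and 18.7 CPM in cycling Ptprc-positive cells. It was higher in the tumor cells of 4 of 4 libraries (log2 difference 2.90 ± 0.20, adjusted p = 1.59e-08, and 2.66 without shSELP 2). Wee1, the kinase that holds Cdk1 inactive, stood at 140.2, 112, 53.1 and 75.1 CPM in members and 8.34, 11.1, 3.82 and 4.76 CPM in cycling Ptprc-positive cells. Its log2 difference was 3.29 ± 0.24 (adjusted p = 2.38e-08, 3.21 without shSELP 2), again with 4 of 4 libraries higher in the tumor cells. Anln, a scaffold of the cleavage furrow, stood at 108, 83.2, 71.9 and 77.7 CPM in members and 10.0, 12.5, 5.10 and 3.75 CPM in cycling Ptprc-positive cells. The tumor cells were higher in 4 of 4 libraries (log2 difference 2.995 ± 0.26, adjusted p = 1.99e-07, 2.73 without shSELP 2). Plk1 had 16.2, 15.6, 8.28 and 7.64 CPM in cycling Ptprc-positive cells, below the members of every library (log2 difference 1.86 ± 0.28, adjusted p = 4.73e-05, 1.44 without shSELP 2). Cdc25c, the phosphatase that activates Cdk1, and Cdk1 itself were also higher in 4 of 4 libraries, with log2 differences of 2.12 ± 0.31 (adjusted p = 3.22e-05, 2.13 without shSELP 2) and 1.78 ± 0.25 (adjusted p = 2.23e-05, 1.45 without shSELP 2). Wee1 and Cdc25c act on Cdk1 in opposite directions, and both were higher. With at least 4 Mki67 and Top2a UMIs the log2 differences were 2.42 for Cdc20, 3.35 for Wee1, 2.89 for Anln, 1.48 for Plk1, 1.80 for Cdc25c and 1.54 for Cdk1, all 6 still passing the test.

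The D cyclins differed from one another in this comparison. Ccnd3 stood at 281, 279.7, 222 and 264 CPM in members and 43.7, 58.1, 48.1 and 53.2 CPM in cycling Ptprc-positive cells, higher in 4 of 4 libraries (log2 difference 1.88 ± 0.18, adjusted p = 4.06e-07, 1.89 without shSELP 2). Ccnd1 had 111, 159, 88.9 and 106 CPM in cycling Ptprc-positive cells, also lower than in the members of every library (log2 difference 1.86 ± 0.21, adjusted p = 2.63e-06, 1.87 without shSELP 2). Ccnd2 had 97.5, 114, 129.7 and 109 CPM there, above the members in 3 of 4 libraries, and was lower in tumor cells (log2 difference -0.65 ± 0.18, adjusted p = 0.00631, -0.77 without shSELP 2). Most of the Ccnd2 value is the shift of -0.50 that the scaling gives a gene of equal CPM, so little of it is a difference in CPM, and DESeq2 gave -0.67. With at least 4 Mki67 and Top2a UMIs the log2 differences were 2.16 for Ccnd1, -0.84 for Ccnd2 and 1.77 for Ccnd3.

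Lower in the tumor cells was Dck, the kinase of the deoxynucleoside salvage route, at 20.6, 24.4, 40.6 and 28.5 CPM in members and 63.1, 68.1, 64.4 and 57.7 CPM in cycling Ptprc-positive cells. Its log2 difference was -1.75 ± 0.23 (adjusted p = 1.32e-05, -1.84 without shSELP 2), lower in 4 of 4 libraries. Lmnb1, a lamin of the nuclear envelope, stood at 154, 149, 87.5 and 132 CPM in members and 236, 234, 338 and 300.2 CPM in cycling Ptprc-positive cells, lower in 4 of 4 libraries (log2 difference -1.53 ± 0.22, adjusted p = 3.46e-05, -1.49 without shSELP 2). Rb1, the retinoblastoma protein that restrains E2F, stood at 11.7, 3.33, 18.8 and 15.5 CPM in members and 20.6, 23.0, 22.3 and 22.5 CPM in cycling Ptprc-positive cells, lower in the tumor cells of 4 of 4 libraries. Its log2 difference was -1.51 ± 0.34 (adjusted p = 0.00151, -1.66 without shSELP 2), from few UMIs. The condensin genes Ncapg2 and Ncaph and the kinesin gene Kif11 were also lower, with log2 differences of -1.27 ± 0.23 (adjusted p = 0.00022), -0.90 ± 0.30 (adjusted p = 0.0178) and -1.05 ± 0.25 (adjusted p = 0.002), and -1.35, -0.91 and -1.10 without shSELP 2. Ncaph lost its call with shNC 2 left out (adjusted p = 0.0609). With at least 4 Mki67 and Top2a UMIs the values were -1.60 for Dck, -1.49 for Lmnb1, -1.27 for Rb1, -1.29 for Ncapg2, -1.17 for Ncaph and -1.53 for Kif11, all 6 passing the test.

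The mitotic genes that move together are known to carry a CHR element, bound by the DREAM complex and by B-Myb with FoxM1, beside boxes bound by NF-Y, and replication genes to carry E2F sites. Letters of these motifs were searched on both strands in RefSeq promoters (build GRCm38.p6), in the 250 bases before the start: TTTGAA or TTTAAA for the CHR element, CCAAT for NF-Y, and GGCGGGAA, TTTGGCGC, TTTCGCGC or TTCCCGCC for E2F-like letters, the first and last of which are the same letters on opposite strands. Of 55 genes of the mitotic lists 45 matched, with 48 promoters, and of 35 replication genes 28 matched, with 32 promoters. CHR letters were in 75.0% of the mitotic, 21.9% of the replication and 21.6% of all 18069 promoters. NF-Y letters were in 70.8, 56.2 and 37.3%, and both were in 62.5, 12.5 and 8.42%. E2F-like letters were in 6.25% of the mitotic, 40.6% of the replication and 4.42% of all promoters. A match is a description of the letters and not a binding site.

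The 150 bases before the start of 4 mitotic genes are shown as examples chosen because they hold both CHR and NF-Y letters, which not every mitotic gene does: Cenpf held no CHR letters in the same window. They are those of Cdc20 (chr4:118437344-118437493, minus strand), Cdk1 (chr10:69352913-69353062, minus strand), Ccnb1 (chr13:100786487-100786636, minus strand) and Ube2c (chr2:164769779-164769928, plus strand), printed 5′ to 3′ in the direction of the gene, with CHR, NF-Y and E2F-like letters of either strand in capitals. Cdk1 and Ube2c carry their NF-Y letters as ATTGG, on the other strand, and the Ube2c CHR letters read TTCAAA. In Cdc20 and Ccnb1 the NF-Y letters read CCAAT.
Cdc20: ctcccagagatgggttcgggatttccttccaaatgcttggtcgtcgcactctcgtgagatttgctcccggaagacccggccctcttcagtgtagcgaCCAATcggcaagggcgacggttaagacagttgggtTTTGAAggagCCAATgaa
Cdk1: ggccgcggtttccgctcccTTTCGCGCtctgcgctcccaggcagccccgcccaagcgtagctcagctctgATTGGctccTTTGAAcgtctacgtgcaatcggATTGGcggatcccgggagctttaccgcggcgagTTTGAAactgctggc
Ccnb1: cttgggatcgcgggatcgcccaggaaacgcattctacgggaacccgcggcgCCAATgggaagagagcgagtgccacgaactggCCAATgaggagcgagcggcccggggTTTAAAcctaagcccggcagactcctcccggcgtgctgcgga
Ube2c: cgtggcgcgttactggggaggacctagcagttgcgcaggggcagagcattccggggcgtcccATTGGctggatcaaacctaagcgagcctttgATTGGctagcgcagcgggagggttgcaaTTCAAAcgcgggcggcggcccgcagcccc

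For contrast, 2 helicase genes of the replication lists carried E2F-like and no CHR letters in the same window, while Rrm2 and Pcna, also of the replication lists, held neither there. They are Mcm5 (chr8:75109359-75109508, plus strand) and Mcm6 (chr1:128359706-128359855, minus strand), with the same capitals. In Mcm6 the first capital run joins TTTGGCGC with the reverse strand's match of TTTCGCGC, which overlap.
Mcm5: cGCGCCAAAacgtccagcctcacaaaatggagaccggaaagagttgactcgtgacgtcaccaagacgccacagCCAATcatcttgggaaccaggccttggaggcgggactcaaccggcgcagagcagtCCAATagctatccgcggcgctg
Mcm6: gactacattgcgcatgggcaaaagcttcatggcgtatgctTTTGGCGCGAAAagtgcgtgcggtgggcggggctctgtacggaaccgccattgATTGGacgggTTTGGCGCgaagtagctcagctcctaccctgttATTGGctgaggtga

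Over all genes tested, calls between the shSELP and shNC members were few. Of 7070 genes tested 76 passed an adjusted p of 0.05 (edgeR quasi-likelihood, Benjamini-Hochberg), 34 higher and 42 lower in shSELP, which is the 1.07% given above. At so low a share, the 0 calls among 128 cell cycle genes do not set those genes apart from the rest. At an unadjusted p of 0.05 there were 1504 genes, and DESeq2 called 104 genes, 60 higher and 44 lower, of which 53 were among the 76. The calls needed both shSELP libraries, since 0 genes passed without shSELP 2 (1114 at the unadjusted p) and 0 without shSELP 1 (1440), each with a single shSELP library assumed to vary like the shNC pair. Without shNC 1 there were 165 and without shNC 2 275. Leaving out the low cells, chosen after seeing the data, gave 46 genes, 25 higher and 21 lower, of which 44 were among the 76. By CPM averaged over the libraries, 23 of the 34 genes higher in shSELP were also higher in the low members than in the rest (67.6%, against 40.8% of all 7070), and 34 of the 42 lower ones were lower there (81.0%, against 59.2%). The calls thus ran in the direction of the low members more often than all genes tested. Among 1563 genes at 100 CPM or more, 59.5% were higher and 40.5% lower in the low members, so this background depends on the level of the genes. The part of the low members was tested only by leaving them out. The count itself was unstable, since leaving out the 1 member that Scrublet called a doublet, in shSELP 2, gave 270 genes, at least 4 Mki67 and Top2a UMIs gave 5, and no filter on low counts gave 579. The genes called among the 76 kept their sign wherever they were tested. In 8 of the 76 genes a single cell held over 50% of the UMIs in a library of the higher group, 4 of them higher and 4 lower in shSELP.

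The 10 called genes named below in each direction were picked among those whose libraries separate by group. That the groups do not overlap for them is set by this choice and is no result. Higher in shSELP was Csn3, which encodes a casein of milk, at 24.1, 13.3, 138 and 139.9 CPM in members. Both shSELP libraries were above both shNC libraries (log2 fold change 2.81 ± 0.31, adjusted p = 0.00872), though 1 cell held 23 of 44 UMIs in shSELP 1. The fold change was 2.86 without shSELP 1 and 2.81 without shSELP 2, where it was no longer called. Lcn2, a secreted carrier of iron-binding siderophores in the acute phase response, stood at 4.12, 22.2, 300.1 and 88.1 CPM, highest in shSELP 1. Both shSELP libraries were above both shNC libraries (log2 fold change 4.02 ± 0.66, adjusted p = 0.038, 2.94 without shSELP 1 and 4.70 without shSELP 2), but 1 cell held 49 of 96 UMIs in shSELP 1, and DESeq2 did not call it (adjusted p = 0.0609). Lcn2 was higher still in other tumor cells, at 36.4, 239.6, 505 and 720.4 CPM. Of 7 acute phase genes 2 could be tested, and 1, Lcn2, was called, against 76 of all 7070 genes (1.07%).

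Tinagl1, a secreted matrix protein, stood at 77.7, 79.9, 297 and 438 CPM (log2 fold change 2.22 ± 0.24, adjusted p = 0.00872, 2.51 without shSELP 1 and 1.92 without shSELP 2). Lpcat2, an acyltransferase that makes platelet-activating factor, stood at 39.9, 101, 259 and 394 CPM (log2 fold change 2.28 ± 0.38, adjusted p = 0.038, 2.57 without shSELP 1 and 1.94 without shSELP 2). Enpp2, the secreted enzyme autotaxin, stood at 104, 114, 475 and 295 CPM (log2 fold change 1.81 ± 0.24, adjusted p = 0.0142, 1.47 without shSELP 1 and 2.13 without shSELP 2). For each of these 3 genes both shSELP libraries were above both shNC libraries. Chchd10, a protein between the mitochondrial membranes, stood at 108, 192, 575 and 542 CPM (log2 fold change 1.92 ± 0.25, adjusted p = 0.0134, 1.91 without shSELP 1 and 1.97 without shSELP 2). Akr1b8, an aldo-keto reductase, stood at 54.3, 71.0, 150.1 and 249 CPM (log2 fold change 1.70 ± 0.28, adjusted p = 0.0387, 2.04 without shSELP 1 and 1.28 without shSELP 2). Upp1, which splits uridine, stood at 22.7, 31.1, 78.2 and 104 CPM (log2 fold change 1.79 ± 0.31, adjusted p = 0.0408, 2.00 without shSELP 1 and 1.57 without shSELP 2). These genes had the same order, and none was called without either shSELP library. Il12rb1, a cytokine receptor subunit, stood at 15.1, 24.4, 84.4 and 88.1 CPM (log2 fold change 2.17 ± 0.33, adjusted p = 0.0252), and Pdzd11, on chromosome X, at 33.0, 31.1, 90.7 and 124 CPM (log2 fold change 1.74 ± 0.28, adjusted p = 0.0367). Without shSELP 2 their log2 fold changes were 2.15 and 1.498. With the low cells left out the log2 fold changes and adjusted p were 2.63 for Csn3 (0.00638), 4.07 for Lcn2 (0.0239), 2.33 for Tinagl1 (0.00638), 2.03 for Lpcat2 (0.0255) and 1.77 for Enpp2 (0.0239). They were 1.85 for Chchd10 (0.00638), 1.51 for Akr1b8 (0.038), 1.78 for Upp1 (0.039), 2.10 for Il12rb1 (0.0255) and 1.72 for Pdzd11 (0.034), so all 10 still passed the test.

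Lower in shSELP was Dusp1, a phosphatase that switches off MAP kinases, at 673, 608, 209 and 199.5 CPM in members. Both shSELP libraries were below both shNC libraries (log2 fold change -1.65 ± 0.19, adjusted p = 0.00872, -1.65 without shSELP 1 and -1.61 without shSELP 2). Leaving out the low cells gave -1.52 (adjusted p = 0.00638). Timp3, a matrix-bound inhibitor of metalloproteinases, stood at 163, 183, 37.5 and 28.5 CPM (log2 fold change -2.40 ± 0.28, adjusted p = 0.00872, -2.56 without shSELP 1 and -2.19 without shSELP 2). Spry1, a feedback inhibitor of receptor tyrosine kinases, stood at 105, 87.7, 21.9 and 31.1 CPM (log2 fold change -1.85 ± 0.32, adjusted p = 0.0408, -1.61 without shSELP 1 and -2.14 without shSELP 2). Both were lower in both shSELP libraries, and Spry1 lost its call without the low cells (log2 -1.61, adjusted p = 0.0702). Cxcl9, a chemokine that interferon gamma induces, stood at 195, 262, 25.01 and 36.3 CPM (log2 fold change -2.87 ± 0.30, adjusted p = 0.00872), but 1 cell held 218 of 236 UMIs in shNC 2. Without shSELP 2 its log2 fold change was -3.17 and without shSELP 1 -2.61. No gene of this paragraph was called without shSELP 1 or without shSELP 2.

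Also lower in shSELP, Hist1h1e, a linker histone, stood at 160.1, 152, 53.1 and 36.3 CPM (log2 fold change -1.83 ± 0.27, adjusted p = 0.0244, -2.07 without shSELP 1 and -1.55 without shSELP 2). Zfp703, a zinc finger corepressor, stood at 71.5, 91.0, 15.6 and 23.3 CPM (log2 fold change -2.02 ± 0.36, adjusted p = 0.0408, -1.75 without shSELP 1 and -2.35 without shSELP 2), and lost its call without the low cells (log2 -1.73, adjusted p = 0.0664). Stox2, a winged-helix protein, stood at 102, 86.6, 9.38 and 23.3 CPM (log2 fold change -2.48 ± 0.39, adjusted p = 0.0311, -1.99 without shSELP 1 and -3.32 without shSELP 2). Each was lower in both shSELP libraries than in both shNC libraries, as the choice of the named genes required. Tcim, a small regulator of transcription, stood at 497, 235, 43.8 and 95.9 CPM (log2 fold change -2.38 ± 0.43, adjusted p = 0.0408, -1.92 without shSELP 1 and -3.07 without shSELP 2). Ankrd28, an ankyrin repeat subunit of a phosphatase, stood at 90.7, 74.4, 28.1 and 10.4 CPM (log2 fold change -2.16 ± 0.41, adjusted p = 0.0412, -2.96 without shSELP 1 and -1.55 without shSELP 2). Gm13889, a predicted gene, stood at 109, 119.9, 21.9 and 13.0 CPM (log2 fold change -2.73 ± 0.34, adjusted p = 0.00957, -3.09 without shSELP 1 and -2.36 without shSELP 2). For these 3 genes the groups did not overlap either, and no call held with either shSELP library left out.

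**Figure D3:**
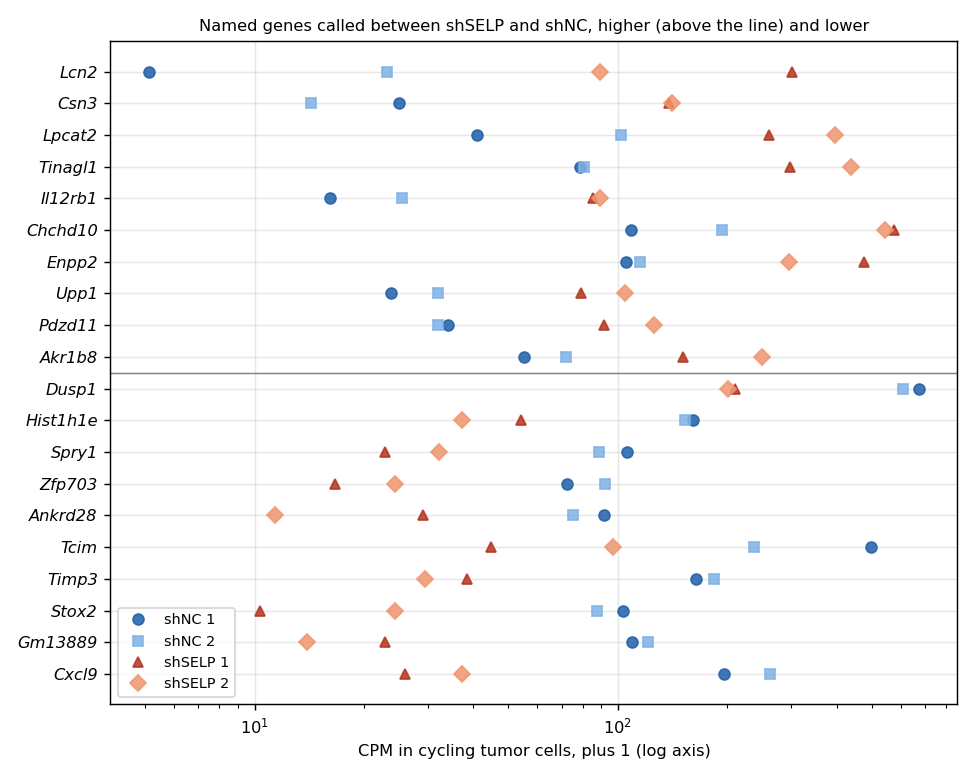
CPM plus 1 of the 10 called genes with the largest fold in each direction, among those with a mean of at least 50 CPM (vertical axis) on a log horizontal axis, 1 point per library, for shSELP against shNC cycling tumor cells. By the rule that named them, the groups do not overlap for any of the 20 genes, and Lcn2 in shSELP ranges from 88.1 to 300.1 CPM.

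Immediate early genes are induced within minutes by growth signals and by cell handling. Of 8 tested, 1, Dusp1, was called, while 0 were higher and 7 lower at the unadjusted p, and DESeq2 called 4, all lower (median log2 fold change -0.69 against -0.01 over all genes). Of all 7070 genes 76 were called and 1504 passed the unadjusted p in either direction, and DESeq2 called 104 of the 3232 to which it gave an adjusted p. Fos, a subunit of the AP transcription factor, stood at 3037, 2416, 1735 and 1096 CPM in members (log2 fold change -0.96 ± 0.23, adjusted p = 0.0689, -0.65 without shSELP 2, a called -0.79 without shNC 1 and a called -1.17 without shNC 2). Its partner Jun stood at 2653, 2356, 1532 and 1384 CPM (log2 fold change -0.79 ± 0.17, adjusted p = 0.054, -0.70 without shSELP 2 and a called -0.93 without shNC 2), and Junb at 1686, 1714, 1059.8 and 1062 CPM (log2 fold change -0.68 ± 0.16, adjusted p = 0.0642, -0.67 without shSELP 2). Egr1, a zinc finger factor, stood at 1361, 1624, 1119 and 1215 CPM (log2 fold change -0.36 ± 0.17, adjusted p = 0.26, -0.41 without shSELP 2). For all 4 both shSELP libraries were below both shNC libraries, and none passed the test. The share of all genes that separate so is not given, so this order does not set the 4 apart. The median of the list was -0.71, -0.74, -0.76 and -0.64 with each library left out in turn. Leave-one-out calls were 0 higher and 2 lower without shNC 1, 0 higher and 3 lower without shNC 2 and 0 higher and 0 lower without shSELP 1 or shSELP 2. Low members had less Fos, Jun and Dusp1 than the other members of the same library in 4 of 4 libraries (mean log2 with 1 UMI added to each sum -1.67, -1.44 and -1.59). With the low cells left out the log2 fold changes between the groups were -0.85 for Fos (adjusted p = 0.0927), -0.63 for Jun (0.108) and -1.52 for Dusp1 (0.00638).

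The study named 12 genes of invasion, proliferation and angiogenesis, chosen on these libraries, so their direction is not independent evidence. Among 4 proliferation genes 0 were called by edgeR (0 higher and 3 lower at the unadjusted p, median -0.87, leave-one-out -0.75, -0.95, -1.01 and -0.67) and 2 of 4 by DESeq2, both lower, against 1504 of 7070 genes at the unadjusted p and 104 of 3232 by DESeq2. With 1 library left out, calls were 0 higher and 2 lower without shNC 1 or shNC 2. Myc, the growth regulator, stood at 101, 119, 62.5 and 46.6 CPM (log2 fold change -1.02 ± 0.27, adjusted p = 0.0829, -0.80 without shSELP 2 and a called -1.15 without shNC 1), lower in both shSELP libraries, and Pdgfa, a growth factor, at 47.4, 32.2, 65.7 and 44.1 CPM (log2 fold change 0.41 ± 0.35, adjusted p = 0.524, 0.70 without shSELP 2, 0.73 without shNC 1, 0.12 without shNC 2 and 0.15 without shSELP 1) with overlap. Among 4 invasion genes 0 were called by edgeR (0 higher and 3 lower at the unadjusted p, median -1.23, leave-one-out -0.92, -1.47, -1.34 and -0.87) and 0 of 4 by DESeq2, beside the same backgrounds. Leaving out 1 library changed the calls to 0 higher and 1 lower without shNC 1 and 0 higher and 3 lower without shNC 2. Chd7, a chromatin remodeler, stood at 173, 131, 81.3 and 41.5 CPM (log2 fold change -1.35 ± 0.32, adjusted p = 0.0659, -0.91 without shSELP 2, a called -1.13 without shNC 1 and a called -1.59 without shNC 2) and Map4k4, a kinase of cell migration, at 230.2, 171, 113 and 77.7 CPM (log2 fold change -1.10 ± 0.27, adjusted p = 0.0702, -0.84 without shSELP 2 and a called -1.36 without shNC 2), both lower in both shSELP libraries. Col3a1, a fibrillar collagen, stood at 164, 43.3, 0 and 41.5 CPM. For Col3a1 shNC 1 alone was high and the groups did not overlap (log2 fold change -2.26 ± 0.85, adjusted p = 0.171), and the only shSELP library left without shSELP 2 was at 0. For Tubb2b, the remaining gene of this list, the groups overlapped in CPM. Its log2 fold change ran from -1.11 to -0.06 over the alternatives. Of 4 angiogenesis genes 1 was higher and 1 lower, the metalloproteinase inhibitors Timp1 and Timp3, against 76 called of all 7070 genes. Leave-one-out calls were 0 higher and 1 lower without shNC 1, 1 higher and 2 lower without shNC 2 and 0 higher and 0 lower without shSELP 1 or shSELP 2. Timp1 stood at 238, 269.7, 556 and 461 CPM (log2 fold change 1.0 ± 0.18, adjusted p = 0.0408, 0.90 without shSELP 1 and 1.14 without shSELP 2), higher in both shSELP libraries, and lost its call also without shNC 1 (adjusted p = 0.0687). Tcf4, a helix-loop-helix factor, stood at 372, 257, 150.1 and 139.9 CPM (log2 fold change -1.13 ± 0.24, adjusted p = 0.054, -1.07 without shSELP 2 and a called -1.43 without shNC 2), and Vegfa, the vascular growth factor, at 61.2, 42.2, 43.8 and 67.4 CPM (log2 fold change 0.09 ± 0.34, adjusted p = 0.901, -0.26 without shSELP 2, 0.40 without shNC 1, -0.19 without shNC 2 and 0.39 without shSELP 1).

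The tumor genes chose the members, so their group values are a description with no test. H19 was highest in shNC 1 and lowest in shSELP 2, as given above, and Sox2, a stem-cell factor, stood at 253, 155, 100.04 and 80.3 CPM with the same order. Nes, a progenitor filament, stood at 154, 214, 147 and 150.3 CPM and Moxd1, a monooxygenase-like gene, at 550.5, 422, 535 and 363 CPM, with the groups overlapping for Moxd1. Fabp7, a lipid carrier of radial glia, stood at 36.4, 59.9, 12.5 and 10.4 CPM, Ptprz1, a receptor phosphatase, at 118, 57.7, 71.9 and 28.5 CPM, and Bcan, a proteoglycan of brain matrix, at 24.1, 12.2, 12.5 and 15.5 CPM. Of 25 neural and glial genes that the rule did not use, 18 could be tested and 1, Id3, was called, lower, against 76 of all 7070 genes (4 higher and 6 lower at the unadjusted p, against 1504 of 7070 in either direction, 2 of 11 by DESeq2, against 104 of 3232). With 1 library left out, calls were 0 higher and 2 lower without shNC 1, 1 higher and 4 lower without shNC 2 and 0 higher and 0 lower without shSELP 1 or shSELP 2. The median was -0.12, leave-one-out -0.26, -0.16, -0.59 and -0.15. Vim, an intermediate filament, stood at 3451, 3673, 4552 and 4465 CPM, Dbi, which binds acyl-CoA, at 4426, 4866, 3933 and 4403 CPM, and Tubb3 at the levels above. Vim and Tubb3 were higher and Dbi lower in both shSELP libraries, by a small margin for Dbi, and none of the 3 passed the test. Of 10 imprinted genes besides H19 only 2, Peg3 and Plagl1, could be tested, and 0 were called (0 at the unadjusted p, 0 of 1 by DESeq2).

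Antigen presentation by MHC class I and the interferon response were read from their lists. B2m, the light chain of MHC class I, stood at 2398, 3074, 2832 and 3076 CPM in members and 4897, 5221, 4738 and 5474 CPM in cycling Ptprc-positive cells. H2-K1, a heavy chain, stood at 1508, 2289.7, 2057 and 2143 CPM, lowest in shNC 1, and Psmb8, an immunoproteasome subunit, at 1016, 1272, 1410.0 and 1521 CPM. Of 9 MHC class I genes 0 were called (0 higher and 0 lower at the unadjusted p, 0 of 8 by DESeq2, median 0.29, leave-one-out 0.10, 0.41, 0.38 and 0.13). Cxcl10, an interferon-induced chemokine, stood at 5195, 9581, 3679.7 and 2710.4 CPM, lower in both shSELP libraries (log2 fold change -1.21 ± 0.27, adjusted p = 0.054, -0.99 without shSELP 2, a called -1.60 without shNC 1 and a called -0.77 without shNC 2). Bst2, the antiviral tetherin, stood at 1933, 2647, 1935 and 2052 CPM with overlap. Of 11 interferon-stimulated genes 0 were called by edgeR (0 higher and 2 lower at the unadjusted p) and 2 of 11 by DESeq2, both lower (median -0.03, leave-one-out -0.39, -0.01, 0.06 and -0.08). Leave-one-out calls were 0 higher and 2 lower without shNC 1 and 0 higher and 1 lower without shNC 2. Over all genes 1504 of 7070 passed the unadjusted p and DESeq2 called 104 of 3232.

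Pgk1, a glycolytic kinase on chromosome X, stood at 1810.1, 1030.0, 1397 and 4249.6 CPM in members, with shSELP 2 far above the rest (log2 fold change 0.99 ± 0.43, adjusted p = 0.227, -0.02 without shSELP 2, a called 1.44 without shNC 1, 0.57 without shNC 2 and 1.61 without shSELP 1). Gapdh stood at 926, 698, 1241 and 2257 CPM (log2 fold change 1.10 ± 0.27, adjusted p = 0.0727, 0.62 without shSELP 2 and a called 1.31 without shNC 1), higher in both shSELP libraries, and Ldha, which makes lactate, at 654, 401, 453 and 832 CPM with overlap. Of 11 hypoxia and glycolysis genes tested 0 were called by edgeR (2 higher and 1 lower at the unadjusted p) and 1 of 9 by DESeq2 (against 1504 of 7070 and 104 of 3232 over all genes). With 1 library left out, calls were 2 higher and 0 lower without shNC 1 and 0 higher and 1 lower without shNC 2. The median was 0.28, leave-one-out 0.77, -0.06, 0.68 and -0.27, so its sign changed. Hspa8, a constitutive chaperone, stood at 1959, 1988, 2151 and 2319 CPM and Hspe1, of the mitochondrial chaperonin, at 1160.0, 1414, 1366 and 1451 CPM. Of 6 heat shock genes 0 were called (0 higher and 0 lower at the unadjusted p, 0 of 6 by DESeq2, median 0.09, leave-one-out 0.08, 0.07, 0.18 and 0.04).

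Whether the group effect in cycling cells differed from that in the tumor cells below the Mki67 and Top2a threshold was tested directly, as an interaction of state and group with library as a block. Of 9255 genes 292 passed, 3.16%, with 82 more positive and 210 more negative in cycling cells. The count was 139 without shSELP 2, 105 without shNC 1, 468 without shSELP 1 and 291 without shNC 2, and DESeq2 called 84, of which 80 were among the 292. In the other tumor cells alone 36 of 10522 genes passed for shSELP against shNC, 0.342%, all higher, and DESeq2 called 332, while edgeR called 346 without shSELP 2, 153 without shSELP 1, 79 without shNC 1 and 462 without shNC 2. With the low cells left out 0 genes passed there by edgeR (1980 at the unadjusted p). Other tumor cells also differed in RNA of other cell types, for oligodendrocyte genes summed to 244, 866, 2149 and 4892 CPM there, against 194, 239, 291 and 254 CPM in the members. Mural genes summed to 31.9, 227, 461 and 618 CPM and fibroblast genes to 256, 9.61, 1011 and 155 CPM in the other tumor cells, so the first 2 lists were higher in both shSELP libraries and the last overlapped. The part of these cells or their RNA in the interaction was tested only by leaving out cells with over 1% of UMIs from any 1 marker list, chosen after seeing the data, which gave 161 genes, 147 of them among the 292, and by leaving out the low cells, which gave 146, 141 of them among the 292.

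Timp3 moved apart between the states, at 202, 199, 578 and 155 CPM in other tumor cells, highest in shSELP 1, against the lower shSELP values in members (interaction -3.03 ± 0.36 in log2, adjusted p = 2.8e-05, -3.61 without shSELP 2). Timp1 had 344, 276, 238 and 202 CPM in other tumor cells, lower in both shSELP libraries, the reverse of the members (interaction 1.59 ± 0.24 in log2, adjusted p = 0.000372, 1.63 without shSELP 2). Both kept their side of the threshold when any 1 library was left out.

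Dusp1 had 810.5, 946, 632 and 627 CPM in other tumor cells, a smaller gap than in members (interaction -1.08 ± 0.23 in log2, adjusted p = 0.00824, -1.03 without shSELP 2), and its adjusted p was 0.0846 without shSELP 2 and 0.108 without shNC 1. Cdk4 was the only cell cycle gene of 130 that passed (0.769%), against 292 of all 9255 genes (3.16%). It had 290.1, 294, 267 and 242 CPM in other tumor cells, lower in both shSELP libraries where the members were higher (interaction 0.83 ± 0.23 in log2, adjusted p = 0.0446, 0.77 without shSELP 2). Its call was lost without shSELP 2 (adjusted p = 0.165), without shNC 1 (0.401) and without shNC 2 (0.106). In other tumor cells 0 of 104 cell cycle genes passed for shSELP against shNC (4 higher and 13 lower at the unadjusted p, 1 of 104 by DESeq2, median -0.21, leave-one-out -0.23, -0.23, 0.07 and -0.50). Over all 10522 genes tested there, 1962 passed the unadjusted p in either direction and DESeq2 called 332. Leaving out 1 library changed the calls to 0 higher and 2 lower without shNC 2 or shSELP 2.

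Cycling and other tumor cells were separated by the rule itself, so their contrast is a description with no test, given as log2 ratios of CPM with 1 UMI added to each sum. Of 115 cell cycle genes at 20 CPM or more in either state, 111 were higher in the cycling cells of 4 of 4 libraries and 1 was lower, with a median log2 ratio of 2.22, against 1479 higher and 990 lower of 6622 genes in all and a median of 0.02. Ccnb1 had a mean log2 ratio of 3.76, from 6.13, 9.24, 2.04 and 17.1 CPM in other tumor cells to the levels above. Tpx2, a spindle assembly factor, had 3.61, Racgap1, of the cytokinetic spindle, 3.39, and Cenpf, a kinetochore protein, 3.32. Mitotic genes thus stood farthest from the other cells, beside Top2a and Mki67, which chose the members. Hardly found in the members were Nnat, an imprinted neuronatin, with 0 UMIs in all, Aplp1, a neuronal membrane protein, with 1, the myelin genes Mag and Mal with 2 and 9, and Car2, a carbonic anhydrase, with 4. Other tumor cells held 9.80, 26.3, 263 and 127 CPM of Nnat and 3.06, 75.4, 167 and 398 CPM of Aplp1. They held 0.919, 54.3, 136 and 340.2 CPM of Mag, 9.19, 36.6, 96.7 and 322 of Mal and 2.14, 174, 189 and 792 of Car2. Apart from Nnat, which was highest in shSELP 1, these were highest in the other tumor cells of shSELP 2, where the oligodendrocyte list was also highest, and their source was not tested.

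Levels along the chromosomes were compared with those of Ptprc-positive cells only. They are a description and do not check the label, since no Ptprc-negative cells besides the tumor cells were compared. For genes of at least 20 CPM, the median log2 ratio of members to Ptprc-positive cells of the same library was taken per chromosome, less the median of the same ratio over all these genes, with 10 CPM added to each level here and below. Relative to all genes it was -0.47, -0.52, -0.54 and -0.53 on chromosome 16, and 0.37, 0.41, 0.46 and 0.39 on chromosome 10 and 0.41, 0.38, 0.45 and 0.35 on chromosome 15. These 3 were alike in all 4 libraries, below 0 on chromosome 16 and above it on the other 2. On chromosome 19 the values were -0.63, -0.54, -0.29 and -0.18, on chromosome 1 -0.01, -0.11, -0.41 and -0.29 and on chromosome X 0.25, 0.30, 0.56 and 0.61. Here both shSELP libraries lay apart from both shNC libraries, higher on chromosomes 19 and X and lower on 1.

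The groups were then set against each other directly, a view chosen after seeing the data and given without a test. In members the median log2 ratio of shSELP to shNC, relative to all genes, was 0.30 (from 0.16 to 0.36 over the 4 library pairs) over 212 genes of chromosome X. With the range over the pairs, it was 0.29 (0.21 to 0.38) on chromosome 19 and -0.26 (-0.26 to -0.21) on chromosome 1. On chromosome 5 it was -0.20 (-0.24 to -0.12). All 4 pairs of an shSELP and an shNC library lay on the same side of 0 for these chromosomes, as they did for 13 of 20 chromosomes in members, 13 in other tumor cells and 8 in cycling Ptprc-positive cells, so the side alone sets none of them apart. In cycling Ptprc-positive cells the medians of all chromosomes lay between -0.04 and 0.04. In other tumor cells the values were 0.23 on chromosome 19, -0.01 on X and -0.06 on 1. They also shifted on chromosomes 10, 15 and 16, at -0.17, -0.19 and 0.17, where the members were at -0.01, -0.09 and -0.03. The source of these shifts was not tested. On chromosome X the members had a median of -0.18 over 45 genes before 40 Mb and 0.42 over 167 genes beyond it, a boundary picked after the values along the chromosome were seen. The same parts gave -0.14 and 0.0007 in other tumor cells and -0.02 and -0.04 in cycling Ptprc-positive cells. Of 233 genes tested on chromosome X 8 were called between the groups, against 76 of 7070 over all genes, and 7 of the 8 were higher in shSELP, namely Timp1, Aifm1, Hprt, Bcap31, Ssr4, Pdzd11 and Mum1l1, while Bgn was lower, named after their values were seen. Transcript levels do not measure DNA copies, and a difference in copies between the cells of the 2 groups was not tested.

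**Figure D4:**
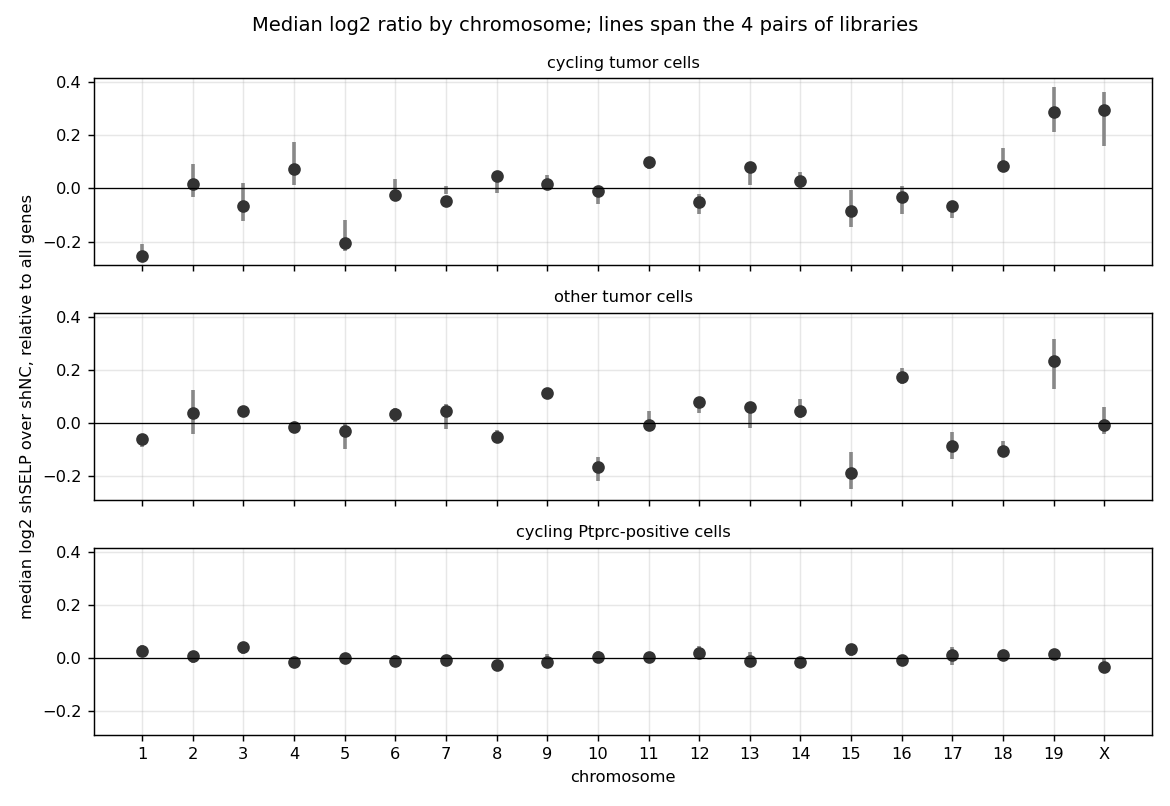
Median log2 ratio of shSELP to shNC per chromosome, relative to all genes, for cycling tumor cells, other tumor cells and cycling Ptprc-positive cells, with lines spanning the 4 pairs of libraries. In the cycling tumor cells chromosomes X and 19 lie highest, at 0.30 and 0.29, and chromosome 1 lowest, at -0.26, while the medians of the Ptprc-positive cells lie between -0.04 and 0.04.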

How the data were processed

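The deposited tables hold UMI counts per gene and cell, made by the authors with Cell Ranger 1.3 on mm10. Per the study's methods, cells with over 10% mitochondrial UMIs or under 500 genes were removed and equal cell numbers drawn per group, though the tables also held cells under 500 genes. Members' UMIs were summed per library. The group test was edgeR 4.0.16 in R 4.3.3, on sums scaled by TMM after filterByExpr, with quasi-likelihood F tests and Benjamini-Hochberg p-values over all genes tested (threshold 0.05), and DESeq2 1.42.0 was an alternative. Doublets were called per library by Scrublet in scanpy 1.11.5. Phase lists came from Seurat 5.3.0, and tables were made with Python 3.11.15, numpy 2.4.6, scipy 1.17.1 and pandas 2.3.3. Named genes were, by rule, those of the rule and the study, the 4 most abundant of each list, the 10 largest folds in each direction among called genes of at least 50 CPM whose libraries separate by group, the 10 largest ratios in each direction of cycling to other tumor cells, and the 6 largest in each direction against cycling Ptprc-positive cells. The members and the lists were chosen with earlier results of these data known. Intervals on counts and shares cover counting error only. The libraries of sorted CD11b-positive cells were used only to apply the rule. Some genes of the lists are not reported here.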

Additional observations from a re-analysis of the deposited data

Results flagged for a closer look

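The group effect differed between cycling and other tumor cells, by the test of that difference, for 292 genes. Among genes named by rule, the log2 difference of the effect, cycling minus other tumor cells, was 1.52 for Akr1b8, 0.83 for Cdk4, 1.36 for Lpcat2, 1.33 for Prph and 1.59 for Timp1. It was -2.20 for Bcan, -3.69 for Cxcl9, -1.08 for Dusp1, -5.26 for Fabp7, -2.67 for Gm13889, -1.66 for Ptprz1, -1.69 for Stox2, -1.36 for Tcf4 and -3.03 for Timp3. Bcan, Fabp7, Prph and Ptprz1 were among the genes that chose the tumor cells, so their values are a description. Without shSELP 2 the value was -1.05 (adjusted p = 0.357) for Cxcl9, -1.43 (adjusted p = 0.214) for Gm13889, 0.77 (adjusted p = 0.165) for Cdk4, -1.03 (adjusted p = 0.0846) for Dusp1 and 1.06 (adjusted p = 0.0998) for Lpcat2, and DESeq2 did not call Cxcl9 (0.261) or Cdk4 (0.0657). Without shNC 1 it was 1.35 (adjusted p = 0.102) for Akr1b8, 0.74 (adjusted p = 0.401) for Cdk4, -0.94 (adjusted p = 0.108) for Dusp1, 1.22 (adjusted p = 0.124) for Lpcat2, -1.69 (adjusted p = 0.143) for Stox2 and -1.09 (adjusted p = 0.108) for Tcf4. It was 0.92 (adjusted p = 0.106) for Cdk4 and -1.69 (adjusted p = 0.0793) for Stox2 without shNC 2, and -1.18 (adjusted p = 0.213) for Stox2 without shSELP 1 and -2.56 (adjusted p = 0.0464) without shSELP 2.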

How the results depend on the processing

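The count of genes called between shSELP and shNC cycling tumor cells, 76, ranged from 0 to 275 when 1 library was left out, where a lone library is assumed to vary like the others. It was 579 with no filter on low counts, 270 without doublet calls, 11 in thinned cells, 213 with 3 tumor genes, 246 with 6 leukocyte genes at 0, and 5 with 4 Mki67 and Top2a UMIs. Of these calls, 44.7% were higher in shSELP, against 57.7% of the 104 by DESeq2. With alternatives chosen after seeing the data it was 46 without low cells and 161 without cells over 1% other-type markers. In other tumor cells the 36 calls became 332 by DESeq2 (87.0% higher, against all 36), 955 with no filter, 5 thinned, 142 with 3 tumor genes and 1 with 6 leukocyte genes at 0. They became 0 without low cells (1980 at an unadjusted p of 0.05), 311 without marker cells, and 79 to 462 when 1 library was left out. The cause was not tested.

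For the difference of the group effect, 292 genes became 84 by DESeq2 (50% more positive, against 28.1%), 472 with no filter, 10 thinned, 124 with 3 tumor genes, 92 with 6 leukocyte genes at 0 and 88 with 4 Mki67 and Top2a UMIs. They became 146 without low cells and 161 without marker cells, both chosen after seeing the data, and 105 to 468 when 1 library was left out. The count of cell cycle genes called between cycling tumor and cycling Ptprc-positive cells, 64, was 54 to 62 when 1 library was left out and 19 of 48 tested in thinned cells, where fewer genes were tested. With 4 Mki67 and Top2a UMIs 58.9% of the 56 calls were higher, against 81.3%. The cause was not tested.

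With replicate number as a block, 8 genes were called in cycling tumor cells and 118 in other tumor cells. The labels give the libraries only a number, and deviations of same-numbered libraries correlated at -0.0096 and 0.142.

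The share of cycling cells, a difference of -4.68 points, was 0.484 in thinned cells and -10.9 to 1.52 when 1 library was left out, with the positive sign without shSELP 1. The log2 ratio of G2/M to S, -0.21, was 0.078 with 6 leukocyte genes at 0 and -0.51 to 0.10 when 1 library was left out. For the 34 named genes outside the rule that chose the members, 486 alternative values kept direction and side of the threshold in 359 cases, 90 lost and 35 gained a call, and 2 reversed. Both were of Vegfa, at -0.19 without shNC 2 and -0.26 without shSELP 2 (-0.26 to 0.40 when 1 library was left out), which passed the test in neither. Moxd1, which helped to choose the members and has no test, changed sign to 0.07 without shNC 1, 0.14 without shSELP 2 and 0.015 without low cells (-0.40 to 0.14 when 1 library was left out). The cause was not tested. Depth limits genes near 3 UMIs, above all in shSELP 1 with 18 members.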

Other observations

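Low members, those under 1% mitochondrial UMIs and 5 Malat1 UMIs per 10000, also differed from the other members of their library in other genes. Of 1563 genes at 100 CPM or more, 259 were lower and 246 higher in CPM in the low members of 4 of 4 libraries, which number 6, 5, 3 and 22 cells. Near the limits, 21, 19, 7 and 11 members lay within 2-fold of the mitochondrial limit and 6, 11, 2 and 18 of the Malat1 limit. The cause of the low values was not tested.

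The groups rest on 2 libraries each, so no exact permutation p could fall below 0.33. Members number 18 in shSELP 1, and 22 of 43 are low cells in shSELP 2. The labels do not say whether libraries of a group are separate pools, and a difference between tumors or cell stocks cannot be told apart from one between hairpins. Knockdown of Selp was not measurable, and no protein was measured in these tables.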
